A study of Mus musculus with 12 samples.

Results

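Immediate early genes are transcribed within minutes of a growth factor, serum or stress signal, without new protein synthesis. Members of the set described here are 10 genes named by symbol, *Fos*, *Fosb*, *Fosl1*, *Jun*, *Junb*, *Egr1*, *Egr2*, *Egr3*, *Ier2* and *Ier3*, of 38911 genes in the count tables. The rule used their symbols and no measured value, but the set was picked with earlier results of these libraries known. The estimated counts of all RefSeq transcripts of a gene were added up, and 7 of the 10 genes passed the filter on low counts and were tested. *Fosb*, *Fosl1* and *Egr2* did not pass it and are given by their counts alone.

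The libraries come from mouse gastruloids, aggregates of embryonic stem (ES) cells that elongate and form germ layer derivatives in culture. All were grown from 200 E14TG2a ES cells, a line kept in 2i medium with LIF, were given the Wnt agonist CHIR on day 2 and were harvested on day 4. From day 3 to day 4 the medium held 0X glucose (0 mM), 1X glucose (21.25 mM), 3X glucose (63.75 mM), or 1X glucose with 5 mM 2-DG, 2-deoxy-D-glucose, a glucose analog that blocks glycolysis and also enters sugar pathways used for glycosylation. Each of the 4 groups has 3 polyA libraries, from ES cell passages 13, 15 and 16, so 12 in all. A library is a pool of whole gastruloids of 1 ES cell line, and each passage was also 1 set of gastruloids, so passage, plate and day cannot be told apart. Library totals ranged from 31902471 to 45956080 counts. Levels are given as CPM, counts relative to the library total after TMM scaling, which corrects for differences in RNA composition. A floor of 3 counts in 1 library corresponds to 0.0648 to 0.0947 CPM.

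The set joins several protein families with different roles. Fos, Fosb and Fosl1 pair with Jun or Junb through leucine zippers to form AP-1, which binds the sequence TGANTCA and close variants. Egr1, Egr2 and Egr3 are zinc finger factors that bind GC-rich sites, and the Nab proteins are their corepressors. Ier2 is a small nuclear protein, and Ier3 is a short-lived protein that acts in ERK signalling and cell survival. The ERK kinases start many of these genes through serum response factor (Srf) and its partners of the Elk family, which together bind the CArG box, while JNK phosphorylates Jun. In the gastrula, FGF signalling through ERK is active in and near the primitive streak, and Egr2 marks segments of the hindbrain.

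Windows of 6 of the 10 members were read from the RefSeq table of promoters (GRCm38.p6, 250 bases before the start). No window was read for the other 4, *Egr1* among them. The windows of *Jun*, *Fos* and *Ier3* are shown because *Jun* and *Ier3* moved in opposite directions between passages and *Fos* was not called in any comparison. Capitals mark matches, on either strand, to the CArG box (the Srf site) and to 4 short motifs. These are TGANTCA (the AP-1 site), the longer variant TGANNTCA, the core TGACG of the site of CREB and ATF proteins, and the TATA box motif TATAAA. A match of the longer variant may hold the core. The windows lie at chr4:95052223-95052472 (minus strand), chr12:85473640-85473889 (plus strand) and chr17:35821463-35821712 (plus strand), and each is written from 5′ to 3′ towards its gene.
Jun: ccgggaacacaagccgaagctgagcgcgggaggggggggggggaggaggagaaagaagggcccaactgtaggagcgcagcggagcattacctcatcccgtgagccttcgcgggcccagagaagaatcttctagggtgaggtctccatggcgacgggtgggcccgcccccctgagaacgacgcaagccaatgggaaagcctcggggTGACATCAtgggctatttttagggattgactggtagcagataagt
Fos: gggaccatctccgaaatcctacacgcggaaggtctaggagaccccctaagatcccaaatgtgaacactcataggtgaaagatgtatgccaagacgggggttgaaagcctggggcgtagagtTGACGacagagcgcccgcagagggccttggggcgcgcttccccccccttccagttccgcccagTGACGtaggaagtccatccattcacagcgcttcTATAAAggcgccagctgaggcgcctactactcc
Ier3: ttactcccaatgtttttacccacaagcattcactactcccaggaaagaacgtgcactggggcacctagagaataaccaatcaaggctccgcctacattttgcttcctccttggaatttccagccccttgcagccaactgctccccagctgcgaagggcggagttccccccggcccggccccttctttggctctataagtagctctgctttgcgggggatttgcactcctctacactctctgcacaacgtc
The *Jun* window holds 1 TGANNTCA match, TGACATCA, which starts 45 bases before the transcription start. Of 32536 distinct windows of this length, 11.9% held such a match. The *Fos* window holds TGACG starting 129 and 66 bases before the start, and TATAAA at 33 bases before it. TGACG was found in 17.9% of all windows and TATAAA in 12.3%. The *Ier3* window has none of the 5 motifs, of which the CArG box was found in 1.48% of all windows and TGANTCA in 6.73%. None of the windows shown holds a CArG box, while some windows of *Egr2*, not shown, do. Bases further upstream were not searched. These matches are letters in a window and were not measured as binding sites.

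*Ier2* was the most abundant member per length of transcript, with a median over 12 libraries of 40.0 CPM per kb (34.7 to 53.3). No library of any other member reached this range. *Jun* followed with a median of 3.06 CPM per kb (1.52 to 6.99), and *Egr1* with 1.38 CPM per kb (0.222 to 2.59). *Junb* had 1.09 CPM per kb (0.873 to 1.46), *Ier3* 0.804 (0.424 to 2.90) and *Egr3* 0.574 (0.155 to 1.05). Counts of each transcript were divided by its own length. The range and place of *Egr3* therefore depend on which of its isoforms the counts were given to. From *Jun* to *Egr3*, the ranges of neighbours in this order overlapped, while every *Jun* value lay above every value of *Junb* and *Egr3*. *Fos* was lower, at 0.242 CPM per kb (0.150 to 0.303), and overlapped with *Egr3*. *Fosl1* at 0.0619 CPM per kb (0 to 0.116) stayed below every *Fos* value, and *Fosb* (0.0245) and *Egr2* (0.0155) had medians lower still.

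**Figure D1:**
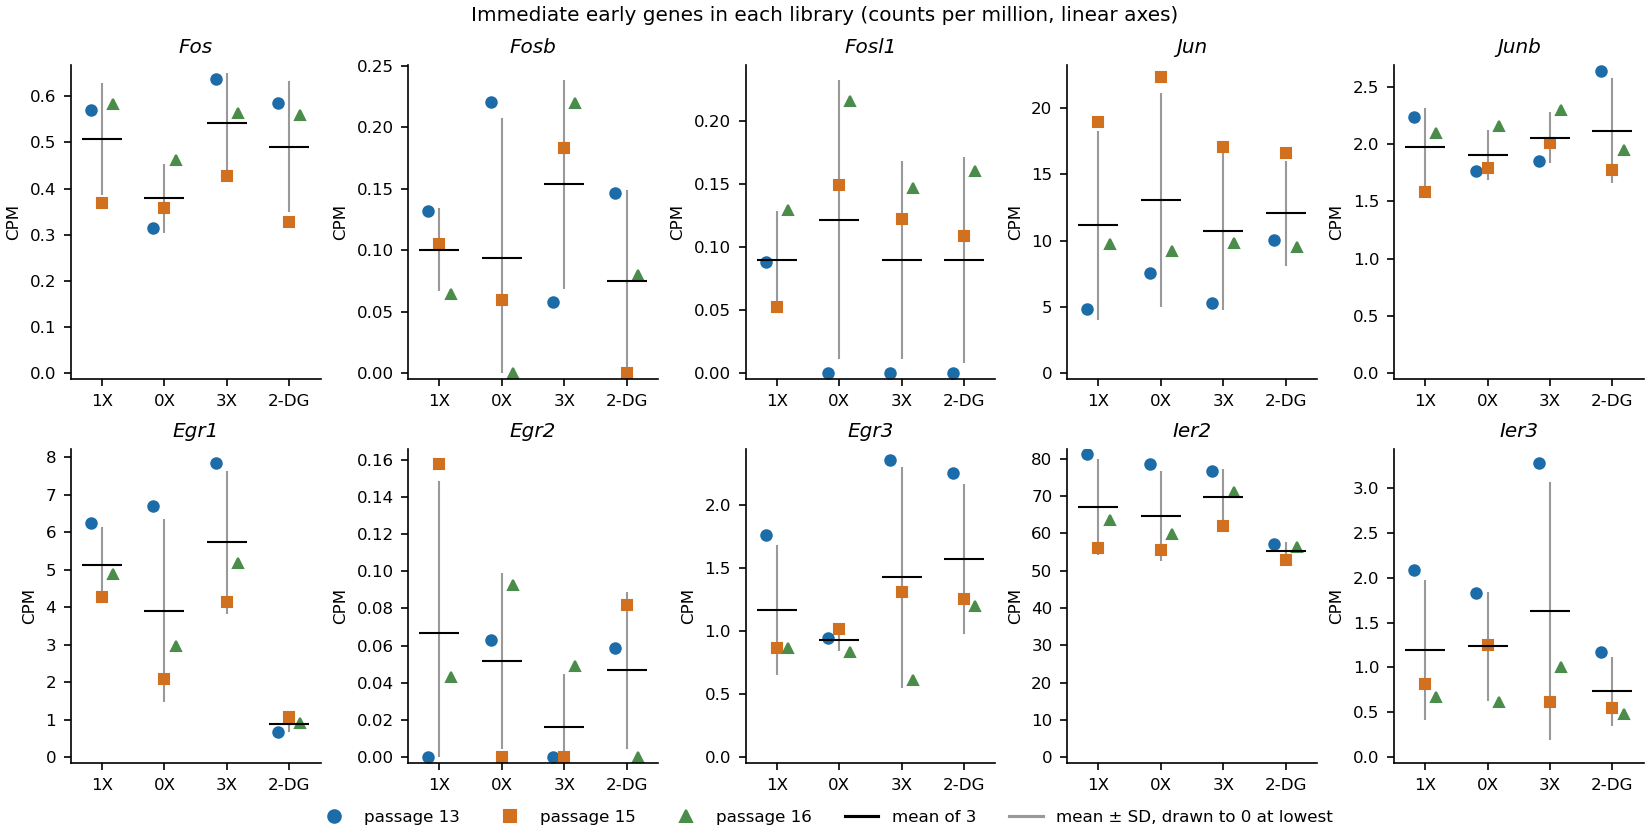
CPM of the 10 immediate early genes in each of the 12 libraries, with a linear axis from 0 for each gene; point shape and colour give the ES cell passage, black bars the mean of 3 libraries and grey lines the mean ± SD, cut at 0. *Egr1* stands at 0.673 to 1.06 CPM in 2-DG and at 2.09 to 7.86 CPM in the other 9 libraries, while *Jun* separates by passage, with passage 15 highest in all 4 treatments.

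*Egr1* fell in 2-DG. In the main fit, which has no passage term, it was the only member past the threshold in either comparison with 2-DG. With the passage as a block, *Ier2* was called as well, as given below. *Egr1* lies on chromosome 18 at 34861207 to 34864956 (GRCm38.p6) and is listed with 1 transcript. In 1X glucose it had 6.24, 4.26 and 4.88 CPM in passages 13, 15 and 16, from 284, 162 and 226 counts. In 2-DG it had 0.673, 1.06 and 0.906 CPM, from 23, 39 and 34 counts. The groups did not overlap, and the highest 2-DG library was below the lowest library of any other group.

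With 2-DG the mean of *Egr1* was 0.881 ± 0.196 CPM, beside 5.13 ± 1.01 CPM in 1X glucose (n = 3 libraries each, ± SD), and the fitted fold was 5.80-fold lower. The log2 fold change was −2.54 (standard error 0.43, 95% interval −3.48 to −1.59; adjusted p = 0.0032, edgeR). With the passage as a block, *Egr1* was at −2.49 with a 95% interval of −3.16 to −1.81 (adjusted p = 0.000128, edgeR). Each of the 3 passages showed the decrease. Within passages, the level in 2-DG was 0.108, 0.249 and 0.185 times that in 1X glucose. Passage 13 had the most *Egr1* in each group without 2-DG and the least in 2-DG, and with 1 library of each treatment in a passage this difference in order was not tested. When all 4 libraries of passage 15 or of passage 16 were left out, *Egr1* was no longer called (adjusted p = 0.0557 and 0.0818 by edgeR), at −2.82 and −2.60.

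Against 0X glucose, *Egr1* was also lower in 2-DG, at −2.14 (standard error 0.43, adjusted p = 0.0065, edgeR). It had 6.69, 2.09 and 2.96 CPM in 0X glucose. This value rested in part on the 0X library of passage 13, since without it the log2 fold change was −1.51 and still called (adjusted p = 0.0134, edgeR). Without all libraries of passage 13 it was −1.36. Whether fewer cells made *Egr1* or each cell held less of its RNA cannot be told apart in these bulk libraries, and the same holds for every gene below.

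Of the 7 members tested, 1 was called in 2-DG against 1X glucose, beside 17.6% of all 16966 genes tested (9.12% higher and 8.51% lower). In 2-DG against 0X glucose the same member was called, beside 18.9% of all genes (9.86% higher and 9.04% lower). A share of 1 in 7 is near these backgrounds, so the decrease of *Egr1* is a result on 1 gene and not on the set. The median log2 fold change of the 7 members was −0.06 against 1X glucose, and that of all genes was 0.00.

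The AP-1 members did not pass the threshold. *Fos* had 0.571, 0.368 and 0.583 CPM in 1X glucose and 0.586, 0.327 and 0.559 CPM in 2-DG, from 12 to 27 counts, with each passage close to its partner. Its log2 fold change was −0.06 with a 95% interval of −0.73 to 0.61. *Junb* had 2.24, 1.58 and 2.10 CPM in 1X glucose and 2.63, 1.77 and 1.94 CPM in 2-DG, and its interval was −0.33 to 0.53. *Jun* had 4.85, 18.9 and 9.70 CPM in 1X glucose and 10.01, 16.6 and 9.54 CPM in 2-DG. The spread between passages was wider than any difference between these groups, and the interval of *Jun*, −1.13 to 1.36, still holds changes of more than 2-fold in either direction. With the passage as a block it narrowed to −0.18 to 0.72, without a call.

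*Egr3*, in the same family as *Egr1*, was not called. It had 1.76, 0.868 and 0.864 CPM in 1X glucose, 0.947, 1.02 and 0.832 CPM in 0X glucose and 2.25, 1.25 and 1.20 CPM in 2-DG. Its log2 fold change was 0.42 against 1X glucose (adjusted p = 0.583, edgeR). Against 0X glucose the groups did not overlap, but the change of 0.75 was not called (adjusted p = 0.300, edgeR). The counts of *Egr3* were given to a single transcript in 11 of 12 libraries, and to 1 or the other of its isoforms in different libraries. Its CPM and main fits therefore use the sum over transcripts, while its CPM per kb rests on this split.

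*Ier2* lay on chromosome 8 at 84661331 to 84662852 and had the most counts, 1864 to 3698 a library. Its level was 81.2, 56.1 and 63.7 CPM in 1X glucose and 57.1, 52.8 and 56.3 CPM in 2-DG, lower in 3 of 3 passages with overlapping groups. The log2 fold change of −0.28 was not called (adjusted p = 0.244, edgeR). With the passage as a block, which compares libraries of the same passage, it was −0.26 and called (adjusted p = 0.0162), and −0.21 against 0X glucose (adjusted p = 0.0419). The block raised the share of all genes called to 41.3% against 1X glucose and 43.1% against 0X glucose, and 2 of the 7 members were then called in each. *Ier3* had 2.09, 0.816 and 0.670 CPM in 1X glucose and 1.17, 0.545 and 0.479 CPM in 2-DG. It was lower in 3 of 3 passages but was not called (−0.71, adjusted p = 0.538 by edgeR and 0.110 with the block). Against 0X glucose with the block, *Ier3* was at −0.78 with an interval of −1.47 to −0.09, not called (adjusted p = 0.0665, edgeR).

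The other 3 members were near the floor in all groups. *Fosb* had 0 to 9 counts a library, *Fosl1* 0 to 7 and *Egr2* 0 to 6. At 3 counts or fewer a library cannot be told from none, and no difference between groups could be detected at this depth. *Fosl1* was at 0 counts in 3 libraries, all of passage 13, in which the fourth had 4 counts, and it had 2 to 7 counts in each library of passages 15 and 16.

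**Figure D2:**
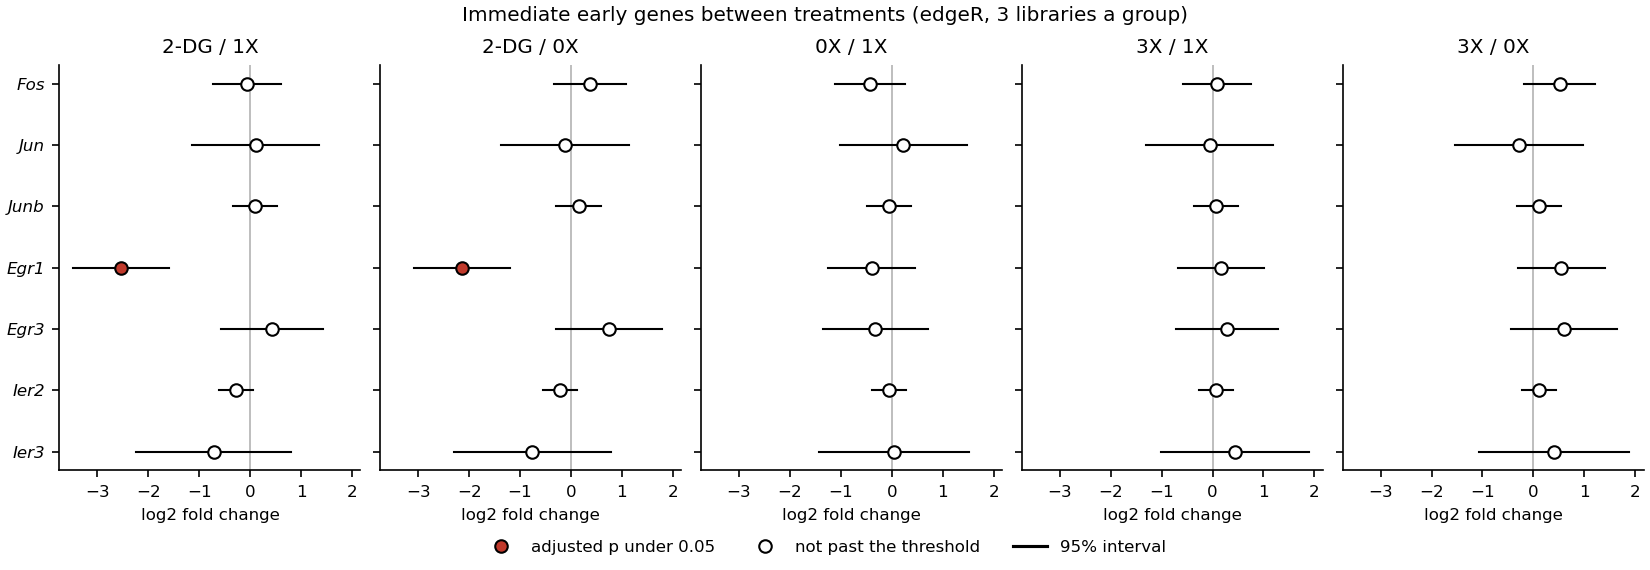
Log2 fold changes (points) with 95% intervals (lines) of the 7 tested members in 5 comparisons of treatments, from edgeR with 3 libraries a group; red points passed the adjusted p threshold of 0.05. The fits have no passage term. *Egr1* is the only red point, at −2.54 and −2.14 in the comparisons of 2-DG with 1X and 0X glucose.

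None of the 7 members tested was called between glucose doses. In 0X against 1X glucose, edgeR called 0.0118% of all genes and no member, and no member had an unadjusted p under 0.05 or was called by DESeq2. The same was found for 3X against 1X glucose, where 0% of all genes were called, and for 3X against 0X glucose, where 0.0118% were. *Egr1* had 6.24, 4.26 and 4.88 CPM in 1X glucose and 7.86, 4.14 and 5.19 CPM in 3X glucose. Its log2 fold change over the whole range of doses, 3X against 0X glucose, was 0.55 with a 95% interval of −0.31 to 1.41. It was higher in 3X in 3 of 3 passages. With the passage as a block, *Egr1* was at 0.61 with an interval of 0.02 to 1.20 (unadjusted p = 0.0435, edgeR). It was not called in that fit either (adjusted p = 0.294, edgeR).

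*Fos* was lowest in 0X glucose, with 0.316, 0.358 and 0.462 CPM and 10 to 15 counts a library. It was lower than in 1X glucose in 3 of 3 passages, at −0.43 with an interval of −1.12 to 0.27. *Ier2*, the member with the narrowest interval, changed by 0.11 from 0X to 3X glucose, and the interval of −0.22 to 0.44 excludes a change of 1.5-fold or more in either direction. *Jun* and *Ier3* had intervals wider than 2 log2 units in each of the 3 comparisons. With the passage as a block, the intervals of *Jun* narrowed to −0.19 to 0.70 in 0X against 1X glucose, −0.46 to 0.43 in 3X against 1X and −0.72 to 0.18 in 3X against 0X, which exclude a 2-fold change in either direction. Those of *Ier3* were −0.52 to 0.76, −0.23 to 1.01 and −0.37 to 0.91, and only the one in 3X against 1X glucose still held a 2-fold change.

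Lists of related genes were read in the same fits. Of 109 genes tested in 9 lists (other AP-1 subunits, Egr4 and the Nab corepressors, other immediate early genes, Srf and its partners, the ERK, RSK and CREB, and JNK and p38 kinases, ERK feedback targets and heat shock genes), 12 rose and 14 fell in 2-DG against 1X glucose. This is 23.9%, beside 17.6% of all genes. Without the libraries of passage 15, 2 of 108 were called (1.85%), and without those of passage 16, 9 of 109 (8.26%). The genes called among all genes tested dropped as well, from 2990 to 113 and 672. Against 0X glucose, 12 rose and 19 fell, which is 28.4% beside 18.9% of all genes.

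A pair of AP-1 subunits outside the set rose. *Atf3*, a stress-induced repressor that pairs with Jun proteins, had 1.47, 1.26 and 1.25 CPM in 1X glucose and 5.50, 5.83 and 3.73 CPM in 2-DG. The groups were far apart, with a log2 fold change of 1.91 (adjusted p = 0.000592, edgeR). *Jund*, the Jun protein found in most resting cells, had 37.7, 39.0 and 36.3 CPM in 1X glucose and 71.4, 61.1 and 55.4 CPM in 2-DG, at 0.73 (adjusted p = 0.000655, edgeR). In all, 2 of 5 tested subunits rose and none fell, beside 9.12% of all genes higher and 8.51% lower. The median of the 5 was 0.71, while *Jun*, *Junb* and *Fos* were not called. Of the 7 listed subunits, *Batf* was at 0 counts in all 1X, 3X and 2-DG libraries.

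*Nab2*, a corepressor of Egr proteins, fell from 8.80, 5.37 and 5.40 CPM in 1X glucose to 4.42, 3.24 and 2.88 CPM in 2-DG. Every 2-DG library was below every library of 1X glucose, at −0.89 (adjusted p = 0.0315, edgeR). *Nab1* was not called, and *Egr4* was under the filter. Calls of this list and of the next are read beside 17.6% of all genes. Of the 6 genes of Srf and its partners, *Elk3* fell by 0.87 on the log2 scale and *Srf* by 0.31 (adjusted p = 0.00133 and 0.00203, edgeR), and the other 4 were not called.

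ERK feedback targets are genes that ERK signalling raises and whose proteins mostly dampen it, or the Etv factors that FGF signals raise. Of the 9, 4 fell in 2-DG against 1X glucose and none rose, beside 8.51% of all genes lower and 9.12% higher. The median log2 fold change of the 9 was −0.23. *Spry4*, an inhibitor of receptor tyrosine kinase signalling, had 55.4, 51.9 and 69.9 CPM in 1X glucose and 11.5, 18.6 and 23.9 CPM in 2-DG. It fell by 1.71 on the log2 scale (adjusted p = 0.000997, edgeR). *Etv4*, an Ets factor, had 245, 155 and 175 CPM in 1X glucose and 74.8, 73.5 and 86.3 CPM in 2-DG, and fell by 1.29 (adjusted p = 0.0037, edgeR). *Etv5* fell by 0.71 and *Dusp6*, the phosphatase of ERK, by 0.43. The last had 232, 243 and 241 CPM in 1X glucose and 158, 186 and 187 CPM in 2-DG. *Spry1*, *Spry2*, *Dusp4*, *Spred1* and *Spred2* were not called against 1X glucose, and *Spry2* fell against 0X glucose by 0.25 (adjusted p = 0.0372, edgeR).

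Kinases were called in each direction. Counts of each list here are read beside the 17.6% of all genes called. In the ERK cascade 1 of 13 genes was called, *Araf* at 0.27. Of 9 genes of the RSK, MSK and CREB list, *Rps6ka4* rose by 0.88 and *Rps6ka3* by 0.42, and *Rps6ka5* and *Creb1* fell by 0.39 and 0.21, so 4 of 9 were called beside 17.6% of all genes. Of 9 genes of the JNK and p38 cascade, *Map2k6* rose by 0.34 and *Mapk14* by 0.17. Among 11 heat shock genes, *Hspb1* rose by 1.76 and *Bag3* by 0.71, and *Hsph1* fell by 0.28. These are mRNA levels, and the activity of the kinases was not measured.

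Of 45 other immediate early genes tested, 3 rose and 4 fell in 2-DG against 1X glucose, 15.6% beside 17.6% of all genes. *Klf10*, a zinc finger repressor, rose from 55.6, 51.1 and 53.5 CPM to 105, 100.3 and 95.5 CPM, at 0.91 (adjusted p = 5.12e-05, edgeR). *Sik1*, a kinase, fell by 0.78, *Ccn1*, a matrix protein, by 1.11 and *Trib1*, a pseudokinase, by 0.39. *Klf10* was also the only one of the 109 genes called between glucose doses. It had 29.3, 29.1 and 26.4 CPM in 0X glucose, lower than in 1X glucose by 0.92 (adjusted p = 0.000706, edgeR), and 56.4, 50.7 and 50.0 CPM in 3X glucose. *Klf10* so had its lowest level without glucose and its highest in 2-DG, and 2-DG was 1.83 log2 units above 0X glucose.

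**Figure D3:**
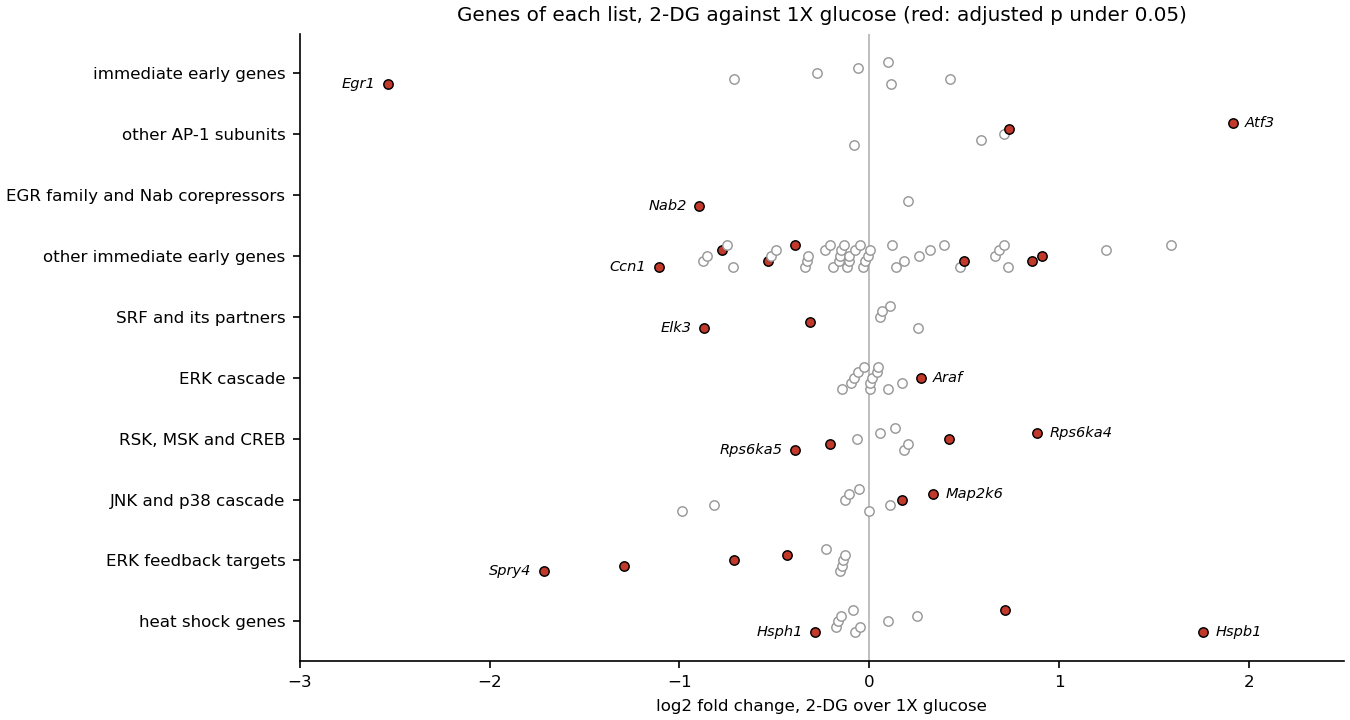
Log2 fold changes in 2-DG against 1X glucose of the 7 tested members and the 109 tested genes of 9 related lists, 1 point a gene and 1 row a list; red points passed the adjusted p threshold of 0.05, and the called genes at either end of a row are named. *Egr1* lies furthest to the left at −2.54, the 4 red ERK feedback targets are all below 0, and *Atf3* lies furthest to the right at 1.91.

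**Figure D4:**
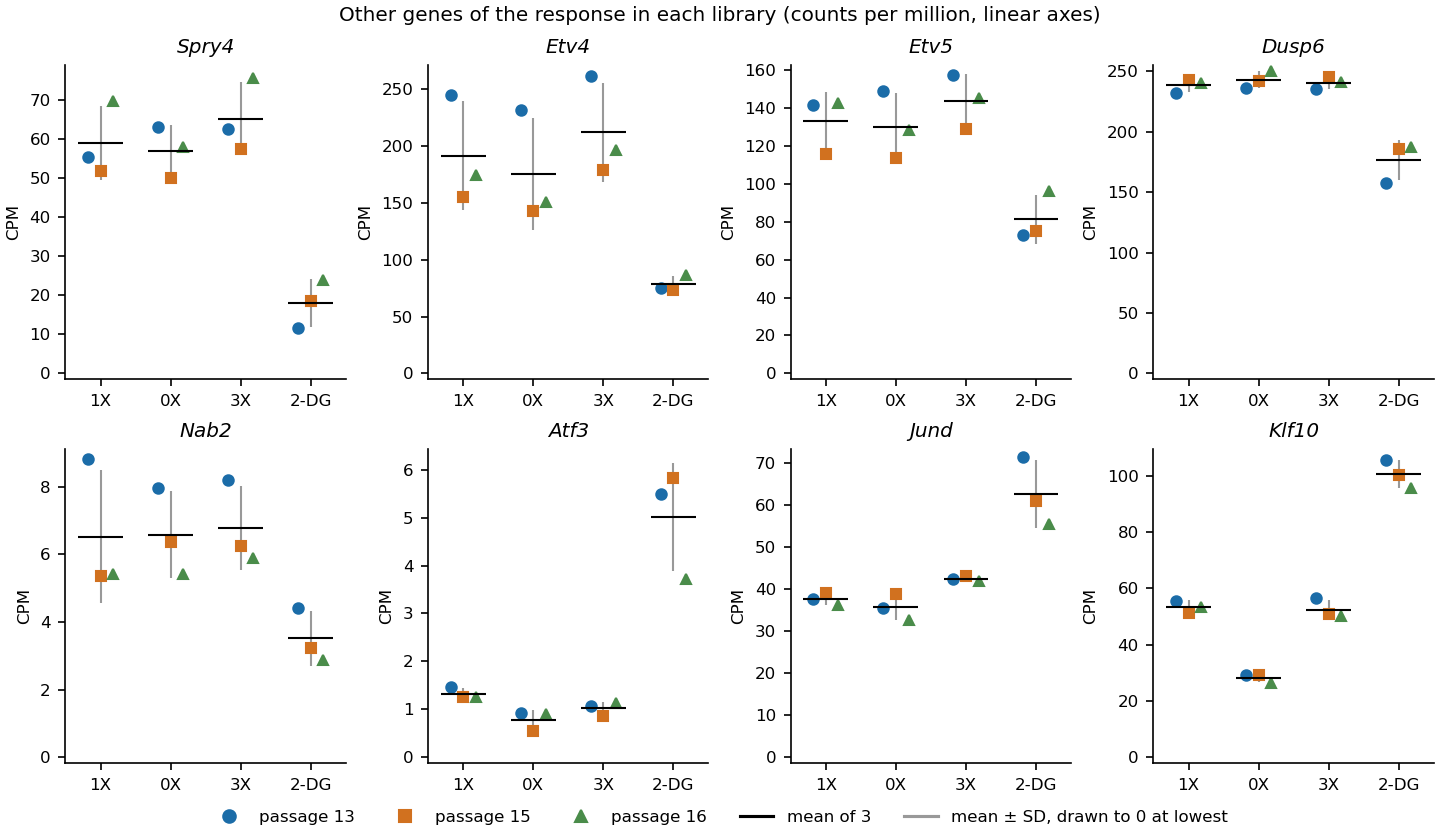
CPM of 8 related genes in each library, with a linear axis from 0 for each gene and marks as in the plot of the members. *Spry4*, *Etv4*, *Etv5*, *Dusp6* and *Nab2* lie lower in the 3 libraries of 2-DG than in the other 9, *Atf3*, *Jund* and *Klf10* lie higher, and *Klf10* is also lowest in 0X glucose.

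Markers of the cell types that gastruloids hold moved with 2-DG as well. Counts of called markers against 1X glucose are read beside 17.6% of all genes. Of 11 primitive streak and mesoderm markers, *T* fell by 1.57 and *Mixl1* by 3.89 on the log2 scale and none rose, and their summed level was 1271 to 2100 CPM in 1X glucose and 1041 to 1896 CPM in 2-DG. Of 8 neural markers, 4 rose and 1 fell, with sums of 64.7 to 168 CPM and 119 to 274 CPM. The 7 endothelial markers had sums of 3.71 to 10.7 CPM and 2.17 to 2.70 CPM, with *Etv2* called lower. Of 7 hindbrain markers, 1 rose and 2 fell, with sums of 459 to 502 CPM and 380 to 439 CPM, and 1 of 5 tested neural crest markers rose. Of 6 tested pluripotency markers, 1 fell against 1X glucose, with sums of 38.2 to 57.2 CPM and 55.2 to 69.6 CPM, and *Pou5f1* and *Nanog* rose against 0X glucose. None of 7 endoderm markers was called against 1X glucose (sums of 31.0 to 188 CPM and 41.9 to 95.9 CPM). Among fibroblast markers, 1 of 6 tested fell. *Lum* and *Postn* were not tested. Both were at 0 counts in 2-DG, and *Lum* was so in 0X and 3X glucose as well. The part of these shifts in the decrease of *Egr1* was not tested.

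Most tested members differed between ES cell passages. Each passage has 1 library of every treatment, and the treatment was a term of this fit. The libraries of a passage come from 1 set of gastruloids. The p-values therefore measure the spread left between these libraries, and not the spread between separate cultures of a passage. Of the 7 members, 5 differed between passages, namely *Jun*, *Ier3*, *Ier2*, *Egr3* and *Egr1*, beside 46.2% of all genes. *Fos* and *Junb* were not called (adjusted p = 0.130 and 0.258, edgeR).

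*Jun* was highest in passage 15 in each treatment. It had 16.6 to 22.3 CPM there, 9.25 to 9.81 CPM in passage 16 and 4.85 to 10.01 CPM in passage 13. Passage 15 did not overlap with the others, at 1.46 against passage 13 (standard error 0.18, adjusted p = 0.000132, edgeR). Passage 16 was lower than passage 15 by 0.96 on the log2 scale (adjusted p = 0.0199, edgeR) and higher than passage 13 by 0.51 (adjusted p = 0.0443, edgeR). The latter call was lost without the filter on low counts (0.50, adjusted p = 0.0745, edgeR). The 2-DG library of passage 13, at 10.01 CPM, stood above the other 3 of its passage. Without the 2-DG libraries, *Jun* was 1.73 log2 units higher in passage 15 and 0.73 higher in passage 16 than in passage 13, both called.

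*Ier3* went the other way, with 1.17 to 3.28 CPM in passage 13, 0.545 to 1.25 CPM in passage 15 and 0.479 to 1.00 CPM in passage 16. It was lower than in passage 13 by 1.33 in passage 15 and by 1.57 in passage 16 (adjusted p = 0.00175 and 0.000662, edgeR). *Egr3* was lower by 0.70 and 1.04, and *Ier2* by 0.37 and 0.22, all called. The call of *Egr3* in passage 15 was lost without the 2-DG libraries (−0.65, adjusted p = 0.084 by edgeR) and with DESeq2 (−0.69, adjusted p = 0.0717). *Egr1* was lower by 0.78 in passage 15 (adjusted p = 0.0253, edgeR), and its change of −0.56 in passage 16 was not called (adjusted p = 0.0842, edgeR). Without the 2-DG libraries, in which *Egr1* is low in each passage, both were called, at −1.03 and −0.71 (adjusted p = 0.0012 and 0.00799, edgeR).

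Against passage 13, 5 of 7 members were called in passage 15 (1 higher and 4 lower), beside 41.8% of all genes. In passage 16, 4 were called (1 higher and 3 lower), beside 40.2%. Between passages 16 and 15 only *Jun* was called, beside 4.2% of all genes. *Fos* had 0.427 CPM or less in passage 15 and at least 0.462 CPM in passage 16, without overlap, but its change of 0.55 was not called (adjusted p = 0.203, edgeR). With the most abundant transcript of each gene in place of the sum, which left fewer calls among all genes as well, 3, 1 and 0 members were called in the 3 comparisons.

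**Figure D5:**
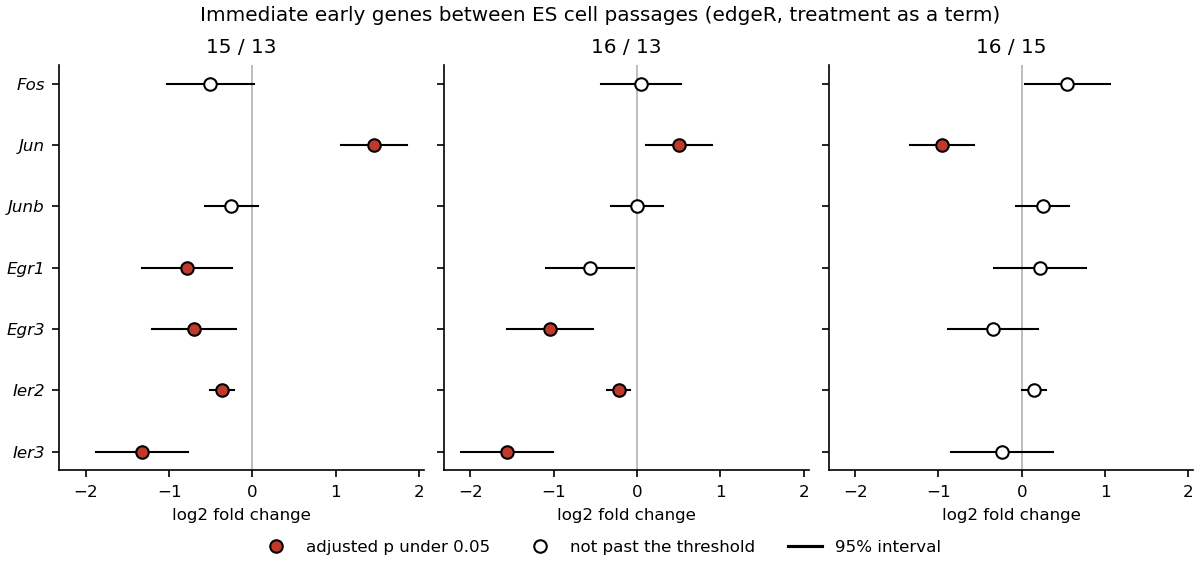
Log2 fold changes (points) with 95% intervals (lines) of the 7 tested members between ES cell passages, from edgeR with treatment as a term and 4 libraries a passage; red points passed the adjusted p threshold of 0.05. The libraries of a passage come from 1 set of gastruloids. *Jun* lies to the right of 0 in both comparisons with passage 13, at 1.46 and 0.51. *Egr1*, *Egr3*, *Ier2* and *Ier3* lie to the left of 0 in both.

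Of the 109 related genes, 37 were higher and 23 lower in passage 15 than in passage 13, and 36 were higher and 16 lower in passage 16. These are 55% and 47.7% of the genes, beside 41.8% and 40.2% of all genes tested, and the counts of single lists below are read against the same shares. *Fosl2*, an AP-1 subunit, was higher in passage 15 by 0.99 (adjusted p = 0.000403, edgeR) and lower in passage 16 than in passage 15 by 0.63, as *Jun* was. *Jdp2*, a repressor that pairs with Jun, was higher in both later passages, by 0.57 and 0.55. *Nab2* was lower in both, by 0.47 and 0.59. Of the 13 genes of the ERK cascade, 8 were higher in passage 15, led by *Braf* at 0.38, and 3 of the 6 genes of the Srf list were higher in each later passage, led by *Mrtfa* (0.32) in passage 15 and *Mrtfb* (0.35) in passage 16. Of the other immediate early genes, 12 were higher and 13 lower in passage 15, among them *Klf4* at 0.99, *Phlda1* at 1.06, *Myc* at 0.44 and *Pim1* at −0.60. In passage 16, 11 were higher and 8 lower, with *Phlda1* at 1.27, *Klf6* at 0.36, *Maff* at −0.87 and *Bhlhe40* at −1.22. The ERK feedback targets were split, with 2 higher and 3 lower in passage 15. *Spred1* and *Spred2* rose by 0.18 and 0.22, and *Etv4* and *Dusp4* were at −0.51 and −0.30.

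Cell type markers separated the same libraries. The 7 endoderm markers summed to 31.0 to 41.9 CPM in passage 13, 95.9 to 215 CPM in passage 15 and 70.0 to 99.9 CPM in passage 16, and all 7 differed between passages. The 11 primitive streak and mesoderm markers summed to 1041 to 1461, 1896 to 2247 and 1609 to 2036 CPM, and all 11 differed. The 8 neural markers summed to 151 to 274, 67.7 to 141 and 55.9 to 119 CPM, and 7 differed. Passage 13 so had lower endoderm and mesoderm sums and higher neural sums than any library of the other passages. Not every mesoderm marker followed its sum. Without 2-DG, *T* had 322 to 330 CPM in passage 13, 150 to 189 CPM in passage 15 and 164 to 217 CPM in passage 16. In 2-DG it had 64.6, 67.1 and 96.1 CPM in passages 13, 15 and 16. Of the 7 endothelial and the 5 tested neural crest markers, 5 and 3 differed, and 5 of 7 hindbrain, 5 of 6 pluripotency and 3 of 6 fibroblast markers did. All these counts are read against the 46.2% of all genes that differed between passages. The part of these differences in the levels of *Jun*, *Ier3* and the other members was not tested.

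For each tested member, the 2 genes outside the set with the highest Pearson correlation of log2 CPM over the 12 libraries are given as a description, since the libraries share treatments and passages. *Egr1* was most like *Dph2* (r = 0.978) and *Fgf1*, an FGF ligand (r = 0.978), and *Fgf1* had at most 0.0545 CPM in 2-DG. That is 0 to 2 counts a library, under the floor. *Jun* was most like *Ntn1*, a secreted guidance protein (r = 0.974), and *Rftn2* (r = 0.972). *Ntn1* had 117 to 184 CPM in passage 15, 66.9 to 78.9 CPM in passage 16 and 40.8 to 68.9 CPM in passage 13, the order of *Jun*. *Ier2* was most like *Prr7* (r = 0.989) and *Kcnf1* (r = 0.978). *Ier3* was most like *Kcnab2* (r = 0.944) and *Itprip* (r = 0.941), and *Egr3* like *Gm38438* (r = 0.942) and *Hdac8* (r = 0.917). The values were lower for *Fos*, with *Tmem54* (r = 0.913) and *Ccdc122* (r = 0.877), and for *Junb*, with *Ltb4r1* (r = 0.855) and *Rmnd5b* (r = 0.849). *Tmem54* had 0 to 18 counts a library and *Ltb4r1* 5 to 17, so their correlations rest on few counts.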

How the data were processed

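PolyA RNA was measured in 12 libraries, 3 in each of 4 treatments. The authors deposited 1 table of estimated counts per library for 120312 RefSeq transcripts, made with StringTie after trimming with Trim Galore, alignment with HISAT2 to mm10 and handling with SAMtools and Picard, per the labels; versions are not given in the sources used here. StringTie apportions reads between transcripts, so counts of single isoforms are less certain than sums. The authors' 3 tables of DESeq2 base means, log2 fold changes, standard errors and p-values per transcript were not used.

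Whole-number counts were added up per gene symbol with the RefSeq table of GRCm38.p6, which named 120299 transcripts and 97.88% of the counts. The other 13 entries carry protein identifiers and were kept under them. Genes were filtered by filterByExpr by group (16966 of 38911 kept) and fitted in R 4.3.3 with edgeR 4.0.16 (TMM factors, glmQLFit, glmQLFTest, all 4 groups, two-sided). The Benjamini-Hochberg adjustment covered every gene tested, with a threshold of 0.05. Passages were compared in a fit with treatment and passage. With 3 libraries against 3, an exact permutation test cannot give a two-sided p below 0.1, so none was used. The labels do not say that libraries of 1 group came from separate cultures beyond their passage, and p-values measure the spread between these libraries. Lengths for CPM per kb came from GENCODE M21.

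The passage pairs the libraries by the labels. Deviations from group means correlated at 0.0963 to 0.623 between libraries of 1 passage and at −0.440 to 0.191 between passages, and adding the passage as a block lowered the common dispersion from 0.0316 to 0.0063.

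The members were set by symbol, and they and the gene lists were chosen with earlier results of these data known. Named genes are the 10 members, for each related list and comparison up to 4 called genes with the smallest p, and for each tested member the 2 genes most correlated with it. Other genes named in the text complete a count. Alternatives were the block, median-of-ratios factors, no filter, the most abundant transcript, only the groups compared, DESeq2 1.42.0, each library left out, each passage left out and, between passages, no 2-DG libraries.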

Additional observations from a re-analysis of the deposited data

How the results depend on the processing

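The decrease of *Egr1* in 2-DG kept its direction in each of 15 alternatives, at −2.82 to −2.21 against 1X glucose and −2.60 to −1.36 against 0X glucose. It stayed called in 13 of the 15 for each, and the exceptions left out all libraries of passage 15 or 16, which called 0 members. Leaving out passage 13 kept the call. Each of these fits has 2 libraries a group, and the cause was not tested. Limits of depth are greatest for *Fos*, with 10 to 27 counts a library, and for *Fosb*, *Fosl1* and *Egr2*, near the floor. With passage as a replicate block, 2 members were called against each of 1X and 0X glucose (*Egr1* and *Ier2*), of 7001 and 7305 genes, 136 genes were called in 3X against 0X glucose, and *Jun* turned to 0.018 in 2-DG against 0X glucose. The block changed the call of no other member. Among the members not called, *Jun* and *Junb* changed sign in some alternative of both comparisons with 2-DG, and *Fos* did against 1X glucose. *Egr3*, *Ier2* and *Ier3* kept their sign in both. In 3X against 1X glucose each tested member changed sign in some alternative. The cause was not tested.

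Counts of genes called were as follows. With only the groups compared in the fit, 1896 were called in 2-DG against 1X glucose and 0 in both 0X against 1X and 3X against 0X glucose. DESeq2 called 12, 2 and 31 genes in 0X against 1X, 3X against 1X and 3X against 0X glucose. With the most abundant transcript, 653 and 775 genes were called in 2-DG against 1X and 0X glucose, 2 in 3X against 1X and 1 in 3X against 0X glucose. The same setting gave 1902, 1958 and 8 genes, and 3, 1 and 0 members, in passages 15 against 13, 16 against 13 and 16 against 15, and 1879 genes and 2 members for any passage. In it *Egr3* was at 0.0025 in 0X against 1X glucose and at 1.09 in passage 16 against 15. No filter gave 326 genes in passage 16 against 15 and −0.0067 for *Junb* in passage 16 against 13, and leaving out 2-DG gave 1328 genes in passage 16 against 15.

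Without passage 13, 4 genes were called in 3X against 0X glucose. *Jun* was at −0.13 in 2-DG against 1X glucose, *Junb* at 0.098 and *Egr3* at 0.093 in 0X against 1X, *Junb* at −0.087 in 2-DG against 0X, and *Ier3* at −0.20 in 3X against 0X glucose. Without passage 15, 113 and 299 genes were called in 2-DG against 1X and 0X glucose and 1 each in 0X against 1X and 3X against 0X. *Ier3* was then at −0.18 in 0X against 1X, *Jun* at 0.045 and *Junb* at −0.069 in 3X against 1X, and *Jun* at 0.22 in 2-DG against 0X glucose. Without passage 16, 672 and 713 genes were called in 2-DG against 1X and 0X glucose and 0 in 0X against 1X and 3X against 0X.

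Leaving out 1 library at a time gave 1734 to 2352 genes in 2-DG against 1X glucose, 2051 to 2619 in 2-DG against 0X, and 1 to 3 in both 0X against 1X and 3X against 0X. In 2-DG against 1X glucose it gave −0.24 to 0.16 for *Fos*, −0.24 to 0.72 for *Jun* and −0.091 to 0.21 for *Junb*, and in 2-DG against 0X −0.41 to 0.52 for *Jun* and −0.034 to 0.27 for *Junb*. In 0X against 1X it gave −0.40 to 0.83 for *Jun*, −0.20 to 0.048 for *Junb*, −0.51 to 0.10 for *Egr3*, −0.22 to 0.11 for *Ier2* and −0.36 to 0.73 for *Ier3*. In 3X against 1X it gave −0.094 to 0.23 for *Fos*, −0.56 to 0.55 for *Jun*, −0.083 to 0.16 for *Junb*, −0.14 to 0.34 for *Egr1*, −0.30 to 0.71 for *Egr3*, −0.060 to 0.22 for *Ier2* and −0.56 to 1.13 for *Ier3*. In 3X against 0X it gave −0.78 to 0.35 for *Jun* and −0.60 to 0.80 for *Ier3*.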
